A study of Mus musculus with 7 samples.

Results

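Glycogen is built and broken down by a small group of enzymes, and 9 of their transcripts were followed here in optic nerves of mice that lack fatty acid synthase (FASN) in the oligodendrocyte (OL) lineage. The 9 genes are Pygm, Pygb, Pygl, Gys1, Gbe1, Gyg, Ugp2, Ppp1r3c and Phka1, out of 22880 genes in the deposited matrix. They were selected on their FPKM in mutant against control nerves, as enzymes of glycogen metabolism around Pygm, and their rows were then found by gene name. That difference is therefore given for them as a description, with a standard error and without a p-value. Counts of members past a threshold are printed as well, and nothing is read from them. RNA came from both optic nerves of each mouse at postnatal day 14 (P14). There were 4 control samples (CT, FASN lox/lox without Cre) and 3 mutant samples (cMU, olig2cre FASN lox/lox), all labelled as C57Bl/6 and as homozygous for the floxed Fasn allele, in a line backcrossed for at least 3 generations. Cre was present in mutants alone, under the Olig2 promoter, so an effect of Cre and an effect of the Fasn deletion cannot be told apart. Values are FPKM, reads scaled by the authors for transcript length and library size. Depth, worked out from the normalized counts and so approximate, ranged from 27453278 to 43458919 reads per sample. Its median was higher in control (41297254) than in mutant samples (31073777). Lists of values run in the order of the sample numbers, 1 to 4 for controls and 1 to 3 for mutants. Fasn had 205 ± 25.1 FPKM in control (SD, n = 4) and 56.3 ± 11.3 FPKM in mutant nerves (SD, n = 3), in the direction the labels give.

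Glycogen is a branched polymer of glucose. It starts on the protein glycogenin, is lengthened by glycogen synthase from UDP-glucose and is branched by a separate enzyme, whereas glycogen phosphorylase cuts glucose 1-phosphate off its ends. Phosphorylase kinase switches phosphorylase on, and protein phosphatase 1, held at the glycogen particle by targeting subunits, switches phosphorylase off and synthase on. In the central nervous system most glycogen lies in astrocytes, and in the optic nerve it is known as a reserve that can be passed on to axons as lactate when glucose runs short.

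The 3 mutant nerves exceeded all 4 controls in both abundant phosphorylases. Pygm encodes the muscle isoform of glycogen phosphorylase, which is also made by astrocytes, and Pygb encodes the brain isoform. Both genes, with Ppp1r3c, make up the members with the largest positive differences, and the sequences ahead of these 3 genes are shown for that reason. They come from RefSeq on GRCm38.p6 (matched by symbol, as were all 9 members) and stop where the gene begins in the deposited matrix. The stretches are chr19:6384158-6384398 on the plus strand for Pygm, chr2:150786546-150786734 on the plus strand for Pygb and chr19:36736654-36736854 on the minus strand for Ppp1r3c. Capitals mark matches, on either strand, to TGACG, which is a part of the cAMP response element, or to the E-box with the letters CACGTG. The CCAAT box, spelled CCAAT, and the TATA box, spelled TATAAA, were searched as well, and capitals mark them too.
Pygm: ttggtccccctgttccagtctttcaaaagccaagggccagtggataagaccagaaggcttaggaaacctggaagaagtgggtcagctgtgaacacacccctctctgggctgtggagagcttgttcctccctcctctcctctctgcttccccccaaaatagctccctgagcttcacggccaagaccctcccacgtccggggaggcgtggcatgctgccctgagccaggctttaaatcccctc
Pygb: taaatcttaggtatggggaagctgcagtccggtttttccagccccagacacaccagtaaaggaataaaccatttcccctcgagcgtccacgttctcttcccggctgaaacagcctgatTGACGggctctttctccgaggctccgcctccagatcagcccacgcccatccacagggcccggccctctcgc
Ppp1r3c: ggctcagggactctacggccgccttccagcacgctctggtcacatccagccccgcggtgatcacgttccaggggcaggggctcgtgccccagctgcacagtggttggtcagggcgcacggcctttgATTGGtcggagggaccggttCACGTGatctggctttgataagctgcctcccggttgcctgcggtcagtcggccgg
Within the 250 bases before the RefSeq start, Pygm held none of these letters in this order. Pygb held TGACG, which 17.8% of 32851 promoters of that length hold, and Ppp1r3c held CACGTG, found in 6.02%, and CCAAT on the other strand, found in 33.8%. TGACG was also found before Pygl, and CCAAT before Gys1 and Ugp2, members whose groups overlapped. A match is a description of letters and not of binding.

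Pygm (ENSMUSG00000032648, chromosome 19 from 6384399 to 6398459, plus strand, GRCm38) had 19.1, 14.1, 18.9 and 20.2 FPKM in the controls against 38.3, 25.1 and 34.4 FPKM in the mutants. The groups were apart, with sample 2 the lowest on either side. The mean was 18.1 ± 2.69 FPKM in control (SD, n = 4) and 32.6 ± 6.79 FPKM in mutant nerves (SD, n = 3), so that mutant nerves held 181% of the control level. On the scale of log2(FPKM + 0.5), used for all differences between groups, mutant minus control was 0.83 with a standard error of 0.16, and it was between 0.70 (without mutant sample 1) and 1.00 (without mutant sample 2) with 1 sample left out. This difference was larger in size than that of 99.3% of the 13866 genes tested. Pygm was selected on this same difference, so nothing is read from that rank. Between 917 and 2270 reads lay behind each value of Pygm.

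Pygb (ENSMUSG00000033059, chromosome 2 from 150786735 to 150831758, plus strand) was by far the most abundant member. Its FPKM read 178, 156, 177 and 195 in the controls against 278, 234 and 273 in the mutants. As for Pygm, the groups were apart and sample 2 was the lowest in each. The means were 176 ± 16.2 FPKM (SD, n = 4) and 262 ± 24.1 FPKM (SD, n = 3), a log2 difference of 0.57 with a standard error of 0.0921. With 1 sample left out it lay between 0.51 and 0.65, both ends coming from the removal of a sample numbered 2. The reads behind each value of Pygb numbered 9023 to 14670.

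Pygl (ENSMUSG00000021069, chromosome 12 from 70190811 to 70231488, minus strand) encodes the liver isoform of phosphorylase and was the scarcest member, with 76 to 184 reads per sample. It had 1.35, 0.884, 1.36 and 1.99 FPKM in the controls against 2.29, 1.09 and 2.25 FPKM in the mutants. The groups overlapped, since mutant sample 2 fell within the control range, and sample 2 was again the lowest on either side. The log2 difference was 0.31 with a standard error of 0.248.

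The mixture of phosphorylase transcripts shifted little. Of the summed FPKM of the 3 isoforms, Pygb made up 90.1% ± 0.736 in control (SD, n = 4) and 88.5% ± 1.36 in mutant nerves (SD, n = 3). The share of Pygm was 9.61%, 8.27%, 9.58% and 9.28% in the controls against 12.03%, 9.65% and 11.1% in the mutants. All mutant shares of Pygm were above all control shares, with mutant sample 2 only just above control sample 1. The sum itself was 196 ± 19.2 FPKM in control (SD, n = 4) and 296 ± 31.5 FPKM in mutant nerves (SD, n = 3).

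Of the 4 members that serve the synthesis of glycogen, Gyg and Ugp2 had negative log2 differences, Gbe1 had a positive one and that of Gys1 had no stable sign. Gys1 (ENSMUSG00000003865, chromosome 7 from 45434844 to 45456619, plus strand) encodes the glycogen synthase of muscle and brain. It had 7.38, 9.59, 8.46 and 7.95 FPKM in the controls against 8.66, 7.12 and 9.17 FPKM in the mutants, so that both the highest and the lowest value came from a sample numbered 2. The groups overlapped throughout, and the log2 difference was -0.01 with a standard error of 0.115, with a sign that changed with the sample left out (-0.08 without mutant sample 3 and 0.10 without mutant sample 2). Gys1 overlaps Ruvbl2 on the other strand by 3253 bases, and whether the counting used the strand is not given in the sources used here. The ratio of Pygb to Gys1 FPKM was 21.5 ± 3.85 in control (SD, n = 4) and 31.6 ± 1.62 in mutant nerves (SD, n = 3), and that of Pygm to Gys1 was 2.21 ± 0.515 and 3.90 ± 0.469.

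Gyg encodes glycogenin, the primer of the particle, and was the single member with all mutant samples below all control samples. Gyg (ENSMUSG00000019528, chromosome 3 from 20122084 to 20155317, minus strand) had 42.0, 44.6, 40.5 and 39.3 FPKM in the controls against 31.4, 35.4 and 34.7 FPKM in the mutants. The means were 41.6 ± 2.29 FPKM (SD, n = 4) and 33.8 ± 2.14 FPKM (SD, n = 3), with a log2 difference of -0.29 and a standard error of 0.0692. The ratio of Pygb to Gyg FPKM was 4.27 ± 0.608 in control (SD, n = 4) and 7.78 ± 1.13 in mutant nerves (SD, n = 3). Sample 2, the lowest for the phosphorylases, was the highest of each group for Gyg.

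Ugp2 (ENSMUSG00000001891, chromosome 11 from 21321138 to 21371201, minus strand) encodes the enzyme that makes UDP-glucose. It had 41.8, 38.6, 37.2 and 36.1 FPKM in the controls against 31.9, 32.0 and 38.1 FPKM in the mutants. Mutant samples 1 and 2 were below all controls, but mutant sample 3 lay among them, and the log2 difference was -0.18 with a standard error of 0.0829. Gbe1 (ENSMUSG00000022707, chromosome 16 from 70313949 to 70569716, plus strand), which encodes the branching enzyme, had 7.38, 5.75, 7.26 and 7.38 FPKM in the controls against 8.14, 7.83 and 8.44 FPKM in the mutants. Every mutant sample was above every control sample, with control sample 2 set apart as the lowest. The log2 difference of Gbe1 was 0.22 with a standard error of 0.102, and without control sample 2 it was 0.14.

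Among the regulators, Ppp1r3c differed most. It encodes a glycogen-targeting subunit of protein phosphatase 1, also called protein targeting to glycogen, which brings the phosphatase to synthase and phosphorylase. Ppp1r3c (ENSMUSG00000067279, chromosome 19 from 36731737 to 36736653, minus strand) had 17.4, 16.3, 13.6 and 15.5 FPKM in the controls against 25.6, 23.5 and 22.3 FPKM in the mutants. The groups were clearly apart, and unlike the phosphorylases the gene was not lowest in sample 2. The means were 15.7 ± 1.59 FPKM (SD, n = 4) and 23.8 ± 1.69 FPKM (SD, n = 3), a log2 difference of 0.59 with a standard error of 0.0922. It lay between 0.53 and 0.64 with 1 sample left out, the narrowest such range of the 3 members with the largest positive differences, and it rested on 1318 to 2492 reads per sample.

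Phka1 (ENSMUSG00000034055, chromosome X from 102513975 to 102644246, minus strand) encodes the muscle form of the regulatory alpha subunit of phosphorylase kinase. It had 8.19, 7.31, 7.79 and 7.68 FPKM in the controls against 8.22, 9.10 and 10.8 FPKM in the mutants. Mutant sample 1 was level with control sample 1, and mutant sample 3 was the highest. The log2 difference was 0.25 with a standard error of 0.0996. As the gene is X-linked, the Y-linked gene Ddx3y was read as a sign of sex: it had 42.1 and 40.0 FPKM in control samples 3 and 4 and 43.2 FPKM in mutant sample 3, and at most 0.0568 FPKM in the other 4 samples.

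**Figure D1:**
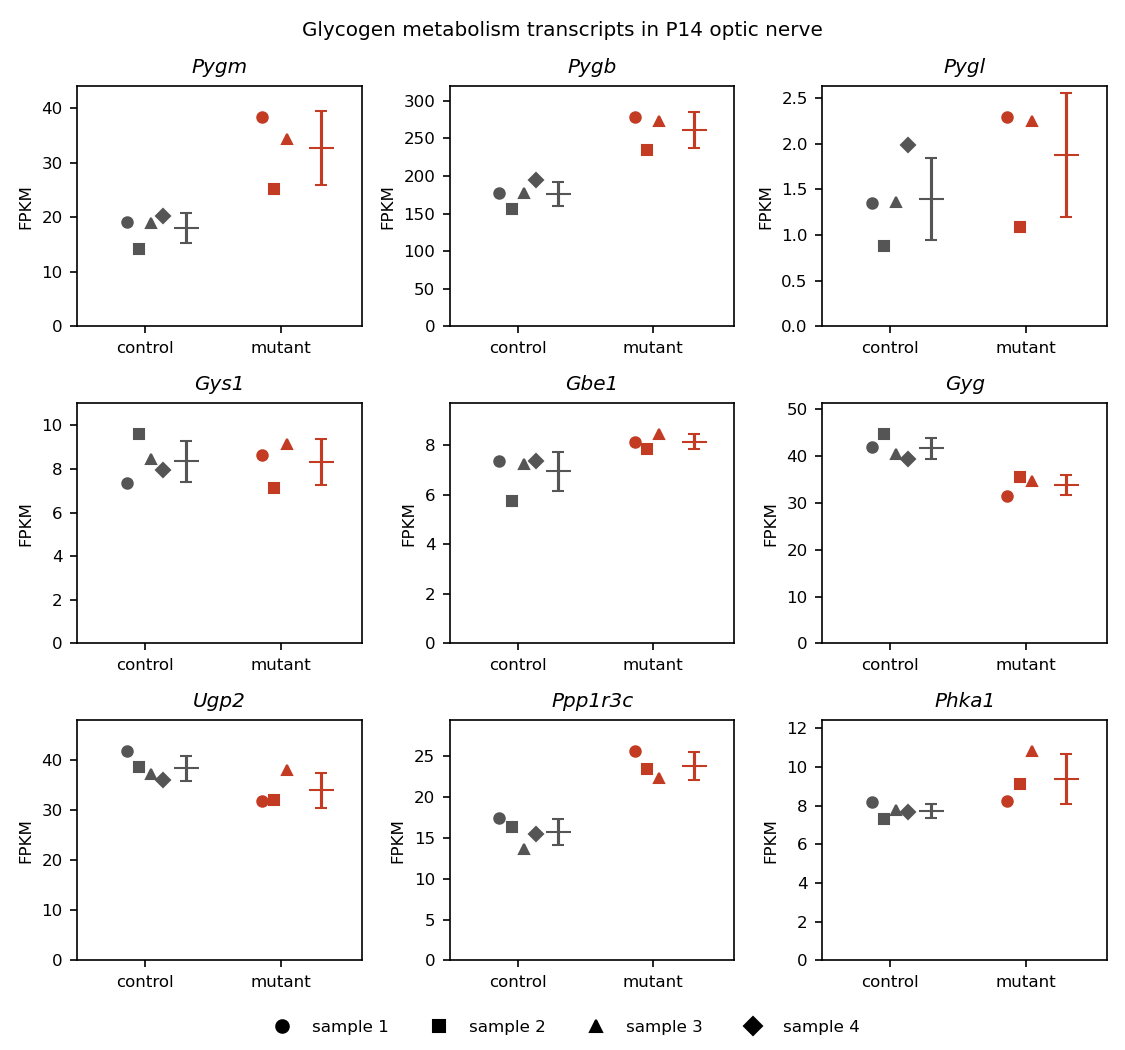
FPKM of the 9 members in each sample (vertical axes from 0), with controls in grey, mutants in red, a symbol for each sample number, and the mean ± SD beside the points (n = 4 control and 3 mutant mice). Pygm, Pygb, Ppp1r3c, Gbe1 and Phka1 lie higher in all mutant samples, Gyg lies lower, and Pygl, Gys1 and Ugp2 overlap.

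In all, 5 members lay entirely above the controls, 1 lay entirely below and 3 overlapped, beside 12.9% above, 8.26% below and 21.1% in either direction over the 13866 genes with at least 0.5 FPKM in at least 3 samples. By limma-trend with Benjamini-Hochberg adjustment over these genes, 3 of the 9 members (Pygm, Pygb and Ppp1r3c) had an adjusted p under 0.05, all higher, beside 2.62% of all genes tested and 1.26% higher (363 genes, 175 higher and 188 lower, and 103 higher and 267 lower when normalized counts were fitted in place of FPKM). Because the members were proposed with this contrast known, nothing is read from their count. The count followed single samples: it was 1, 0, 0 and 1 without control samples 1 to 4 and 1, 4 and 0 without mutant samples 1 to 3, with Gyg as the addition without mutant sample 2, and 4 or 5 members had an unadjusted p under 0.05 in each of these limma-trend fits. In the fit with a replicate block for the sample number, Gyg joined the 3 (8.36% of all genes tested passed there). The log2 difference of Gyg there was -0.32 with a standard error of 0.0751. Control sample 4 has no mutant partner and does not enter the difference of that fit. The median log2 difference was 0.25 over the members and 0.05 over all genes tested.

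In control nerves the levels spanned from Pygb to Pygl. FPKM, a value per length, was highest for Pygb (176), followed by Gyg (41.6) and Ugp2 (38.4), whose control samples overlapped. Pygm (18.1) and Ppp1r3c (15.7) overlapped as well, as did Gys1 (8.34), Phka1 (7.74) and Gbe1 (6.94) among themselves. Pygl (1.40) lay below all others. Pygb stood at the percentile 97.1 of the control means of all genes tested, Pygm at 66.4 and Pygl at 11.7.

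The order of levels rests in part on the lengths. The length deposited for Pygb is 1476 bases and that for Pygm 1656 bases, whereas the longest coding transcripts in GENCODE M21, on the same build, have 3909 and 2874 bases. With the latter lengths, a choice made after seeing the data, Pygb had 66.6 ± 6.12 and Pygm 10.4 ± 1.55 FPKM in control nerves (SD, n = 4), so that Pygm lay below Ppp1r3c at 15.7 ± 1.59 FPKM. Ugp2 (33.9 ± 2.18 FPKM) then had a higher mean than Gyg (32.5 ± 1.79 FPKM), and Gys1 (4.69 ± 0.530 FPKM) a lower one than Phka1 (7.08 ± 0.332 FPKM) and Gbe1 (5.19 ± 0.595 FPKM). The share of Pygm among the phosphorylases was then 13.3% ± 0.863 in control (SD, n = 4) and 15.7% ± 1.61 in mutant nerves (SD, n = 3). Length does not enter the difference of a gene between samples.

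**Figure D2:**
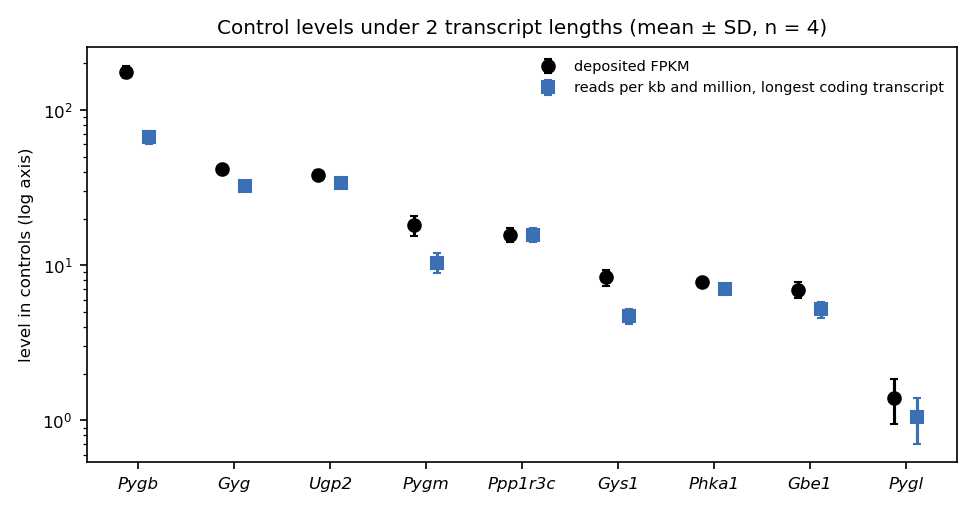
Level of each member in control nerves on a log axis (mean ± SD, n = 4), as deposited FPKM (black circles) and as FPKM recomputed with the longest coding transcript of GENCODE M21 (blue squares). Pygb is highest under both lengths, and Pygm falls from 18.1 to 10.4, below Ppp1r3c.

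Other genes of glycogen metabolism were compared by a list drawn up by textbook role rather than by how they moved. Of 52 such genes 47 were tested, and 1 passed, namely Phkb (2.62% passed over all genes). At an unadjusted p under 0.05 there were 14 of 47, beside 3387 of 13866 over all genes tested. Of the 47, 32 had a positive and 15 a negative log2 difference, beside 60.1% positive over all genes, and the median was 0.10 against 0.05. Of the same 47, 7 lay entirely above and 6 entirely below the controls, beside 12.9% and 8.26% of all genes.

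Phkb, which encodes the beta subunit of phosphorylase kinase, rose in mutant nerves. It had 32.3, 29.2, 30.7 and 31.5 FPKM in the controls against 39.8, 37.1 and 41.2 FPKM in the mutants. The groups were apart, and the means were 30.9 ± 1.31 FPKM (SD, n = 4) and 39.4 ± 2.07 FPKM (SD, n = 3). The log2 difference was 0.34 with a standard error of 0.0634 (adjusted p = 0.0345 from limma-trend, higher in 3 of 3 mutant samples). Without control samples 1 to 4 the adjusted p from limma-trend was 0.0637, 0.0928, 0.122 and 0.0665, and without mutant samples 1 and 3 it was 0.0679 and 0.109, whereas it was 0.0308 without mutant sample 2 and 0.0351 in the fit with a replicate block.

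Among the 7 tested genes of phosphorylase kinase and its calmodulin subunit, the others did not pass. Gaa, the lysosomal alpha-glucosidase, had 76.3 and 107 FPKM (log2 difference 0.48, adjusted p = 0.170 by limma-trend). In the fit with a replicate block the adjusted p of Gaa from limma-trend was 0.0293.

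The phosphoglucomutases Pgm1 and Pgm2, which interconvert glucose 1-phosphate and glucose 6-phosphate, did not pass (adjusted p = 0.638 and 0.231 from limma-trend, with log2 differences of 0.10 and 0.21). Neither did Gsk3b, a kinase that switches synthase off, at 34.3 FPKM in control and 35.4 FPKM in mutant nerves (log2 difference 0.04, adjusted p = 0.719 by limma-trend), and its sign turned with the scaling of the samples. None of the 7 genes for subunits of protein phosphatase 1 passed in limma-trend, 3 of them had an unadjusted p under 0.05, and their median was -0.08. With the replicate block 6 of the 47 genes passed, all higher, beside 8.36% of all genes tested (890 higher and 269 lower). Among the 6 were Phkb and Gaa with Pgm5, Ppp1r3b and Prkag2, the last 3 being named after their values were seen. By limma-trend the count was 0 without any 1 of the control samples or without mutant sample 3 (10 to 14 at an unadjusted p under 0.05), 1 without mutant sample 1 (Phkg1) and 3 without mutant sample 2 (Phkb, Pgm5 and Prkag2).

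**Figure D3:**
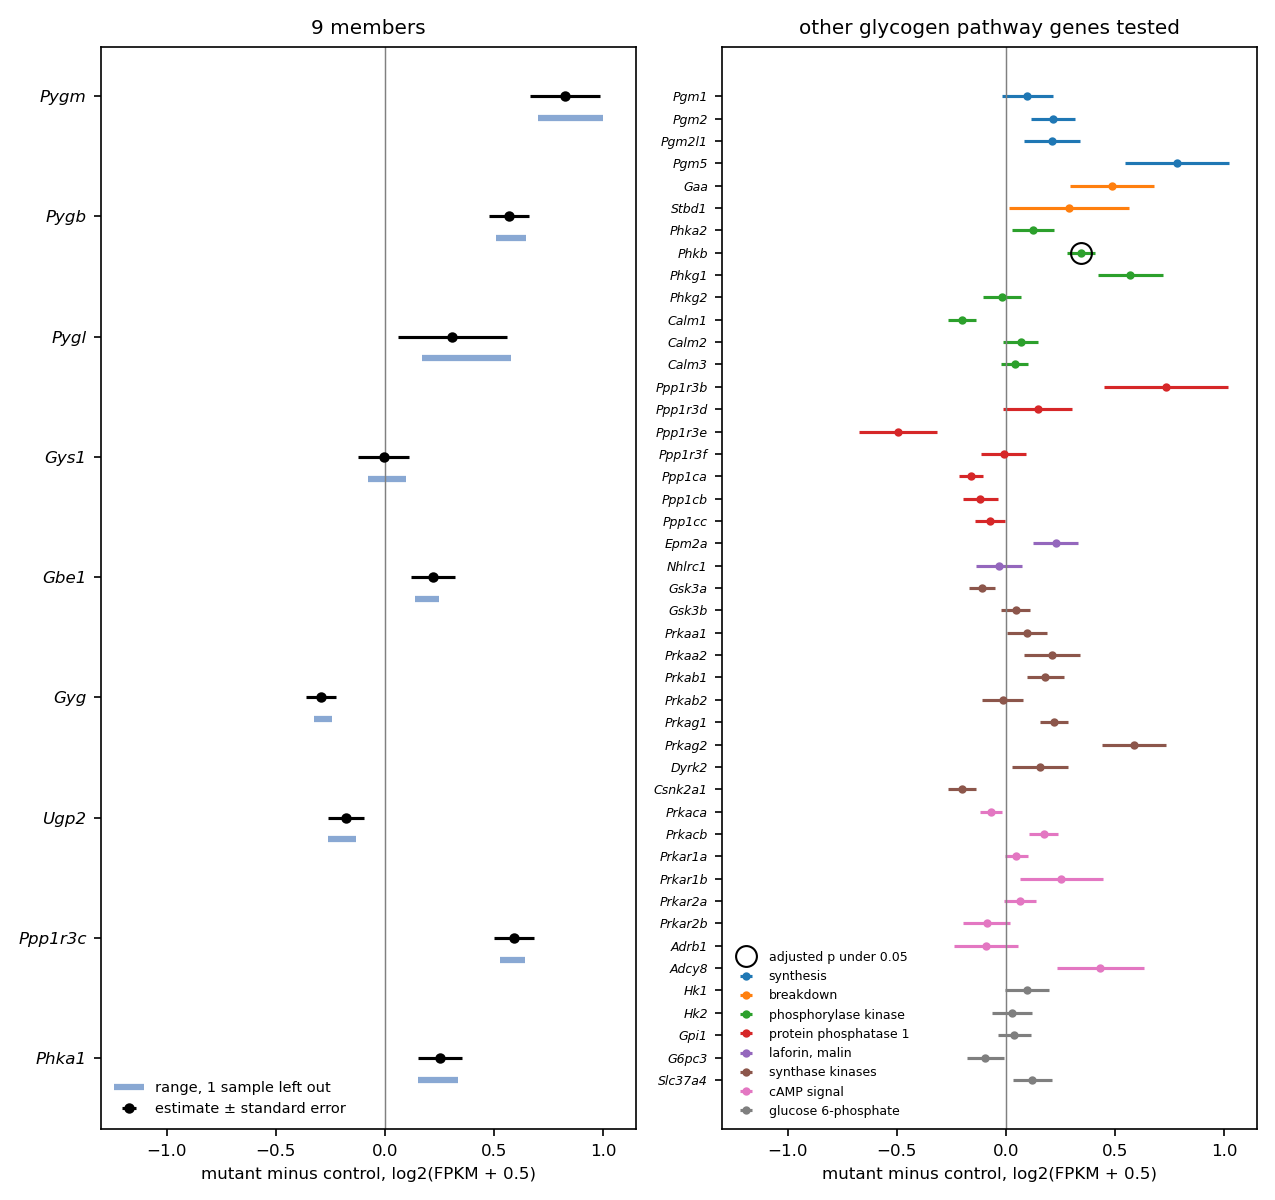
Mutant minus control on the scale of log2(FPKM + 0.5), with standard errors, for the 9 members (left, with the range over fits that left out 1 sample as blue bars) and for other tested glycogen pathway genes coloured by role (right). Pygm lies at 0.83, Ppp1r3c at 0.59 and Pygb at 0.57, and the circle on the right marks Phkb, the gene with an adjusted p under 0.05.

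Astrocyte markers differed in the same direction as Pygm, Pygb and Ppp1r3c. The summed FPKM of 10 astrocyte markers was 3051 to 3494 in control and 4021 to 4810 in mutant samples, a mean of 140% of control. All 10 were positive in log2 difference (0.13 to 0.71, median 0.53). For 8 of them the mutants lay entirely above the controls (12.9% of all genes), and 4 passed limma-trend, all higher (1.26% of all genes). The count that passed was 8 in the fit with a replicate block, where 8.36% of all genes passed. It was 0 without control sample 1, 2 or 3 or mutant sample 3 (8 at an unadjusted p under 0.05 by limma-trend in each), and 3 to 5 when 1 of the other samples was left out. Gfap, Aqp4 and Slc1a3 were well expressed in every sample, and Gfap was the largest part of the sum in each. In tissue RNA, more cells of a type and more RNA per cell cannot be told apart. The summed FPKM of 9 oligodendrocyte markers was 34370 to 36550 in control and 25250 to 32920 in mutant samples.

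Per 1000 FPKM of astrocyte markers the differences of Pygm and Pygb were smaller and the groups met. Pygm had 5.84, 4.47, 6.19 and 5.77 in the controls against 9.53, 5.24 and 7.15 in the mutants, with mutant sample 2 inside the control range. Pygb had 54.4 ± 3.70 in control (SD, n = 4) and 58.2 ± 10.2 in mutant nerves (SD, n = 3), and Ppp1r3c had 4.85 ± 0.466 and 5.31 ± 0.935. By the same measure Gys1, Gyg and Ugp2 lay entirely below the controls and no member lay entirely above, as 51.8% and 0.0865% of all genes tested did. The part of astrocyte abundance in these results was not tested beyond these values.

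Skeletal muscle is the tissue that Pygm is named for, and muscle markers were high in 1 sample. The summed FPKM of 12 such markers was 2.79 to 3.54 in control samples, 3.69 and 6.03 in mutant samples 1 and 3 and 82.3 in mutant sample 2, in which Acta1 had 15.1 FPKM and Ckm 7.62 FPKM. Mutant sample 2 had the lowest Pygm of the mutants, and the difference of Pygm was larger without it. Summed smooth muscle and mural markers were 81.8 to 119.5 FPKM in control and 118 to 129 FPKM in mutant samples, microglia markers 179 to 206 and 204 to 241 FPKM, and neuron or retina markers 18.1 to 22.7 and 17.9 to 35.0 FPKM. Endothelial markers were 119 to 137 and 142 to 161 FPKM, and meningeal fibroblast markers 1799 to 2545 and 2385 to 4570 FPKM. Their part in the results was not tested.

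**Figure D4:**
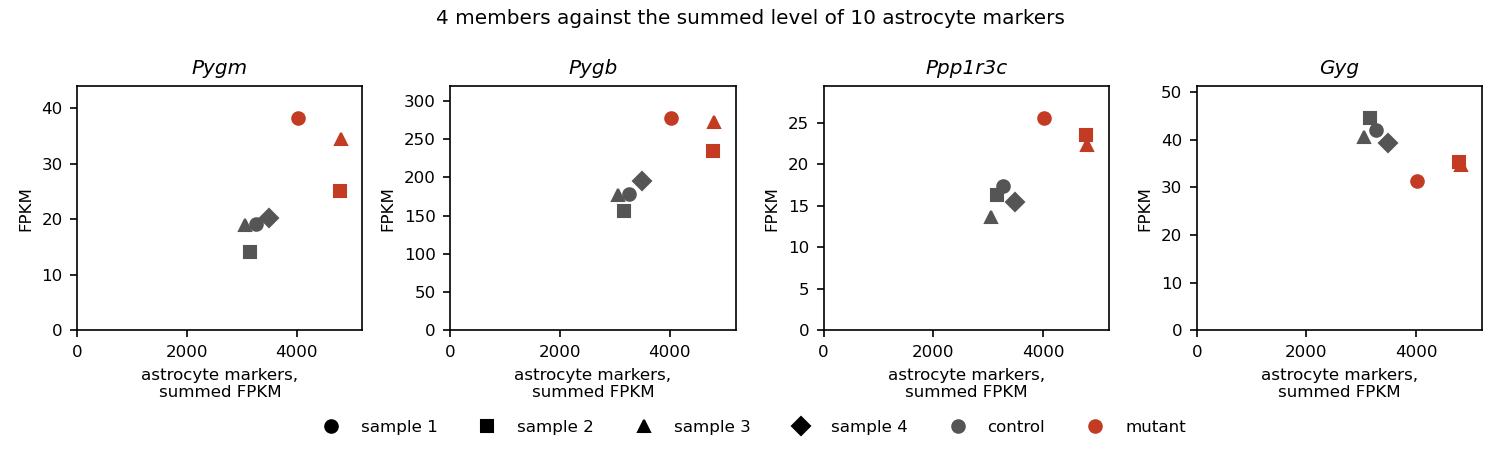
FPKM of Pygm, Pygb, Ppp1r3c and Gyg (vertical axes) against the summed FPKM of 10 astrocyte markers (horizontal axes) in each of the 7 samples, with controls in grey, mutants in red and a symbol for each sample number. The mutant samples lie to the right of the controls, and mutant sample 2 has 25.1 FPKM of Pygm at a marker sum near that of mutant sample 3, which has 34.4 FPKM. Mutant sample 1 has the lowest marker sum of the mutants (4021 FPKM) and the highest Pygm (38.3 FPKM). Single markers were split: Gfap, the largest part of the sum, had 1700, 2060 and 2110 FPKM in mutant samples 1 to 3. Gjb6 had 219, 131 and 159 FPKM and Gja1 had 385, 336 and 336 FPKM, the only markers of the list highest in mutant sample 1.

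The genes most like Pygm across the 7 samples included Ctps2, Ppap2b, Pbxip1 and Prkag1, which were among the 5 highest of 9443 genes with a mean of at least 5 FPKM. Likeness was Pearson's r of log2(FPKM + 0.5), a description over samples that share the genotype difference, and it was 0.998, 0.998, 0.994 and 0.991 in that order. Taken on deviations from the group means, which leaves the genotype out, it was 0.993, 0.989, 0.975 and 0.958. The genes were picked by their likeness over these same samples, so the second set of values is no separate check. Ctps2 had 7.47, 6.70, 7.43 and 7.63 FPKM in control samples and 9.37, 8.24 and 8.96 FPKM in mutant samples. Sample 2 was the lowest of each genotype, as in Pygm. Of the members, Pygb had an r of 0.986 with Pygm over the samples (0.956 on deviations), whereas Ppp1r3c had 0.824 over the samples and 0.00624 on deviations, and Gyg had -0.969 and -0.858.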

How the data were processed

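Polyadenylated RNA of P14 optic nerves was sequenced with a stranded kit in 4 control and 3 mutant mice. The authors trimmed the reads, aligned them with STAR (2.5.1b) to GRCm38 and estimated gene levels with RSEM (1.2.22). They deposited 1 table of 22880 genes with an FPKM value per sample. It also holds a normalized count, the authors' signal after scaling of the estimated count by 1 factor per sample, whose method is not given in the sources used here. The deposited GC content, a fraction in the authors' annotation, and the transcript length are columns of the same table, as are the authors' own fold change, p-value and FDR, which were not used.

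Samples were grouped by their titles. limma-trend (limma 3.58.1 in R 4.3.3) was run on log2(FPKM + 0.5) for 13866 genes with at least 0.5 FPKM in at least 3 samples, with genotype as the only term, two-sided, and Benjamini-Hochberg adjustment over all of them at 0.05. The script was tested on simulated data. The authors used littermates and other mice of matched age, and which samples were littermates is not given in the sources used here. With 4 mice against 3, the p-values set a difference between groups against the spread between mice of a group. limma-trend draws that spread towards the spread of genes at a similar level. The members and the gene lists were chosen with earlier results of these data known. The genes named are all members, Fasn, each pathway gene past the threshold, pathway genes of set roles (Gaa, Phkb, Gsk3b, Pgm1 and Pgm2), defining cell type markers and the 5 genes most like Pygm. Some genes that this rule takes are not reported here.

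The value of 1 read was read from the steps between low normalized counts, and the totals were 27453278 to 43458919 reads. Between 73.4% and 78.9% of values from 0.5 to 10.5 reads were whole to within 0.02, too few for a count test, so the planned tests on counts were not run. Read numbers are therefore approximate. Deviations from the group means correlated between mice that share a number (r across genes 0.25 to 0.375 in 3 pairs, against -0.357 to 0.087 between different numbers), so sample numbers were treated as pairs in a fit with a replicate block. The source of the pairing is not given, and it was read from these same values. The 3 deviations of each group add up to 0, so these correlations are not independent. Ddx3y was high in sample 3 and near 0 in samples 1 and 2 of both groups, so sex runs along the numbers. Control sample 4 had no mutant partner and did not enter the difference of the block fit. That difference equalled the one without control sample 4, as for Pygm at 0.88 in both. Other pseudocounts, filters and scalings, normalized counts and fits without each sample were also tried.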

Additional observations from a re-analysis of the deposited data

Results flagged for a closer look

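In 5 of 39 quantities checked in the 4 control samples, 1 sample stood apart from the others by Dixon's test, and chance flags about 1 in 20. The quantities are not independent, as some are computed from others or were picked for likeness to Pygm. Nothing is therefore read from the number flagged. Gbe1 had 5.755 FPKM in control sample 2, against 7.26 to 7.38 FPKM in the other controls. The share of Pygb among the phosphorylases was 91.2% in control sample 2, against 89.7% to 89.8%. Ppap2b, a gene similar to Pygm across samples, had 70.8 FPKM in control sample 2, against 82.1 to 83.5 FPKM. The summed FPKM of 8 blood markers was 9450 in control sample 2, against 2160 to 3218 in the other controls and 2851 to 4227 in the mutant samples. The summed FPKM of skeletal muscle markers was 2.79 in control sample 1, against 3.52 to 3.54.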

How the results depend on the processing

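The log2 difference of each member moved by less than 1 SD between replicates under all 144 combinations of member and alternative. It kept its sign in 141 of them, the exceptions being Gys1. Leaving out 1 sample could not move a difference by more than that SD, since the same sample also widens the SD. The block fit repeats the difference without control sample 4, and other filters leave the difference of a gene unchanged. Nothing is therefore read from the bound of 1 SD in those settings. Scaling moved all members 1 way: with samples shifted to equal medians, the difference of each was lower. It went from 0.83 to 0.74 for Pygm, 0.57 to 0.49 for Pygb and 0.59 to 0.51 for Ppp1r3c. For Gbe1 it went from 0.22 to 0.14, for Phka1 from 0.25 to 0.17 and for Gyg from -0.29 to -0.38. The median over all genes went from 0.05 to -0.03. Counts of genes with an adjusted p under 0.05 varied widely with the setting. With no filter on low values, limma-trend called 95 genes in all, 0 members and 0 of the other pathway genes (5 members and 12 pathway genes had an unadjusted p under 0.05), where more genes were tested. With samples shifted to equal medians or with normalized counts, 0 pathway genes passed, since Phkb went to adjusted p = 0.0585 and 0.0533 (0.0308 to 0.122 over all its alternatives, with 14 pathway genes at an unadjusted p under 0.05 in both fits). With 1 sample left out, the count over all genes was 6 to 907, that of members 0 to 4 and that of pathway genes 0 to 3. The replicate block gave 1159 genes, 890 higher and 269 lower, and 6 pathway genes, ended the call of Ppp1r2, and changed no other call among the members, Fasn, Il6st and the pathway genes of set roles than those of Gyg and Gaa. Gsk3b had log2 differences of -0.01229, -0.03768 and -0.03293 under TMM scaling, equal medians and normalized counts. Calls split into 175 higher and 188 lower on FPKM, 132 and 263 under TMM scaling and 117 and 283 with equal medians. The tests with edgeR and DESeq2 were not run, as whole reads could not be recovered for nearly all genes. Pygl, with at most 184 reads, is the member whose depth limits precision most.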

Other observations

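The authors' annotation in the deposited matrix lists 45 genes under glycogen metabolism, synthesis or breakdown, of which 8 are members. Of the others 29 were tested, and 3 passed limma-trend, all higher in mutant nerves, beside 2.62% of all genes. They were Phkb, Ppp1r2 and Il6st, the last 2 being named after their values were seen. Ppp1r2, which encodes inhibitor 2 of protein phosphatase 1, had 36.5 FPKM in control and 44.6 FPKM in mutant nerves (log2 difference 0.28, standard error 0.0557, adjusted p = 0.0415 from limma-trend, groups apart). Il6st, the signalling subunit of the receptors for the interleukin 6 family, had 110.7 and 152 FPKM (log2 difference 0.46, standard error 0.0794, adjusted p = 0.0293 from limma-trend, groups apart). By limma-trend Ppp1r2 did not pass with any sample left out (adjusted p from 0.0519 to 0.138) nor with the replicate block (adjusted p = 0.0620), TMM scaling (0.0939), equal medians (0.144) or normalized counts (0.127). Il6st did not pass without control samples 1, 2 and 3 (adjusted p = 0.0549, 0.0664 and 0.112 by limma-trend), without mutant samples 1 and 3 (0.0565 and 0.0976) or with no filter on low values (0.0653). The median over the 29 genes was 0.13, against 0.05 over all genes tested, and 18 of the 29 are also in the lists by role.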
